A study of Capra hircus with 12 samples.

Results

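Bone morphogenetic proteins (BMPs), transforming growth factors beta (TGF-betas) and activins are secreted ligands of one signalling superfamily, and 42 genes of this pathway were followed through the yearly hair cycle of goat (Capra hircus) cashmere follicles. The genes were taken by symbol from a fixed list of 12 ligands, 9 receptors, 8 SMAD signal transducers, 4 ID target genes and 9 antagonists and modulators. All 42 were measured among the 20326 genes of the data, and 41 were tested. GDF10, a ligand of the family, stayed under the filter on low values. The tissue was the secondary hair follicle, the skin follicle that grows the fine cashmere fibre, collected from goats aged 1.5 years. Follicles labelled anagen (growth) came from May and September, those labelled catagen (regression) from November and December, and those labelled telogen (rest) from February and March. Each month had 1 female and 1 male library, so each stage had 4 libraries and the study 12. No treatment or genotype is named, and the sources used here do not say whether an animal was sampled in more than 1 month or how many animals a library holds. P-values below therefore measure the spread between these libraries.

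In this pathway a ligand binds a pair of type I and type II receptors, the type I receptor phosphorylates receptor SMADs, and these join SMAD4 and enter the nucleus. BMPs act mainly through SMAD1, SMAD5 and SMAD9, whereas TGF-betas and activins act mainly through SMAD2 and SMAD3. SMAD6 and SMAD7 are inhibitory SMADs that the pathway itself induces, the ID genes are classical BMP targets, and noggin, gremlin, chordin and follistatin bind ligands outside the cell. In hair follicles, BMP signalling is known for holding stem cells quiescent in telogen and for its part in hair shaft differentiation, and TGF-beta 2 is known for opposing BMP at the start of growth.

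The deposited values are expression estimates per transcript length on a per-million scale, and their sums ran from 904623 to 1127797 per library. Read depth is unknown, so no counting error can be given. Keratin and inner root sheath genes marked the libraries as hair follicle: the summed value of the 7 inner root sheath markers measured (of 11 listed) was 3693 to 21302. Telogen libraries stood apart along the first principal component, which held 52.1% of the variance. The March male library lay at 22.97 on that axis, between the other telogen libraries (52.4 to 56.4) and those of the other stages (at most -6.82). Its mitochondrial share was 4.63%, against 9.88 to 11.8% in the other telogen libraries and 1.53 to 3.51% elsewhere. Both May libraries held skeletal muscle transcripts, with a summed value of 7 measured markers (of 10 listed) of 223 and 220.3, against 4.19 to 8.59 in all other libraries.

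Between telogen and each other stage some of the pathway genes passed the test, and between catagen and anagen none did. In telogen, transcripts of INHBA, TGFB2, TGFB3, BMPR1B, BMPR2, SMAD1, SMAD4, SMAD9, GREM1 and SMURF2 passed as higher against both other stages. Those of BMP8A, the inhibitory SMADs, ID1, ID3, BAMBI and CHRD passed as lower against both. Of these genes, TGFB3, BMPR1B, SMAD4, GREM1, ID3 and CHRD did not keep both calls under every alternative described below. Differences are given on the log2(value + 1) scale, which understates the change of low genes, and a gene passed at an adjusted p below 0.05 over all 16095 genes tested. In bulk tissue, fewer cells of a type and less RNA per cell cannot be told apart. Between telogen and catagen 22 of 41 members passed (53.7%), where 43.6% of all genes passed; 13 were higher and 9 lower, where 24.5% of all genes were higher and 19% lower. Between telogen and anagen 24 of 41 passed (58.5%), where 52.9% of all genes passed; 16 were higher and 8 lower, where 29.2% of all genes were higher and 23.7% lower. These shares are near those of all genes, so the counts are not a result about the pathway. The median difference of the members was 0.13 against catagen and 0.16 against anagen, and that of all genes was 0.07 in both. With every library scaled to the same sum these medians against catagen were 0.22 for the members and 0.15 for all genes, and with mitochondrial and ribosomal protein transcripts left out of that sum those against anagen were 0.25 and 0.15.

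**Figure D1:**
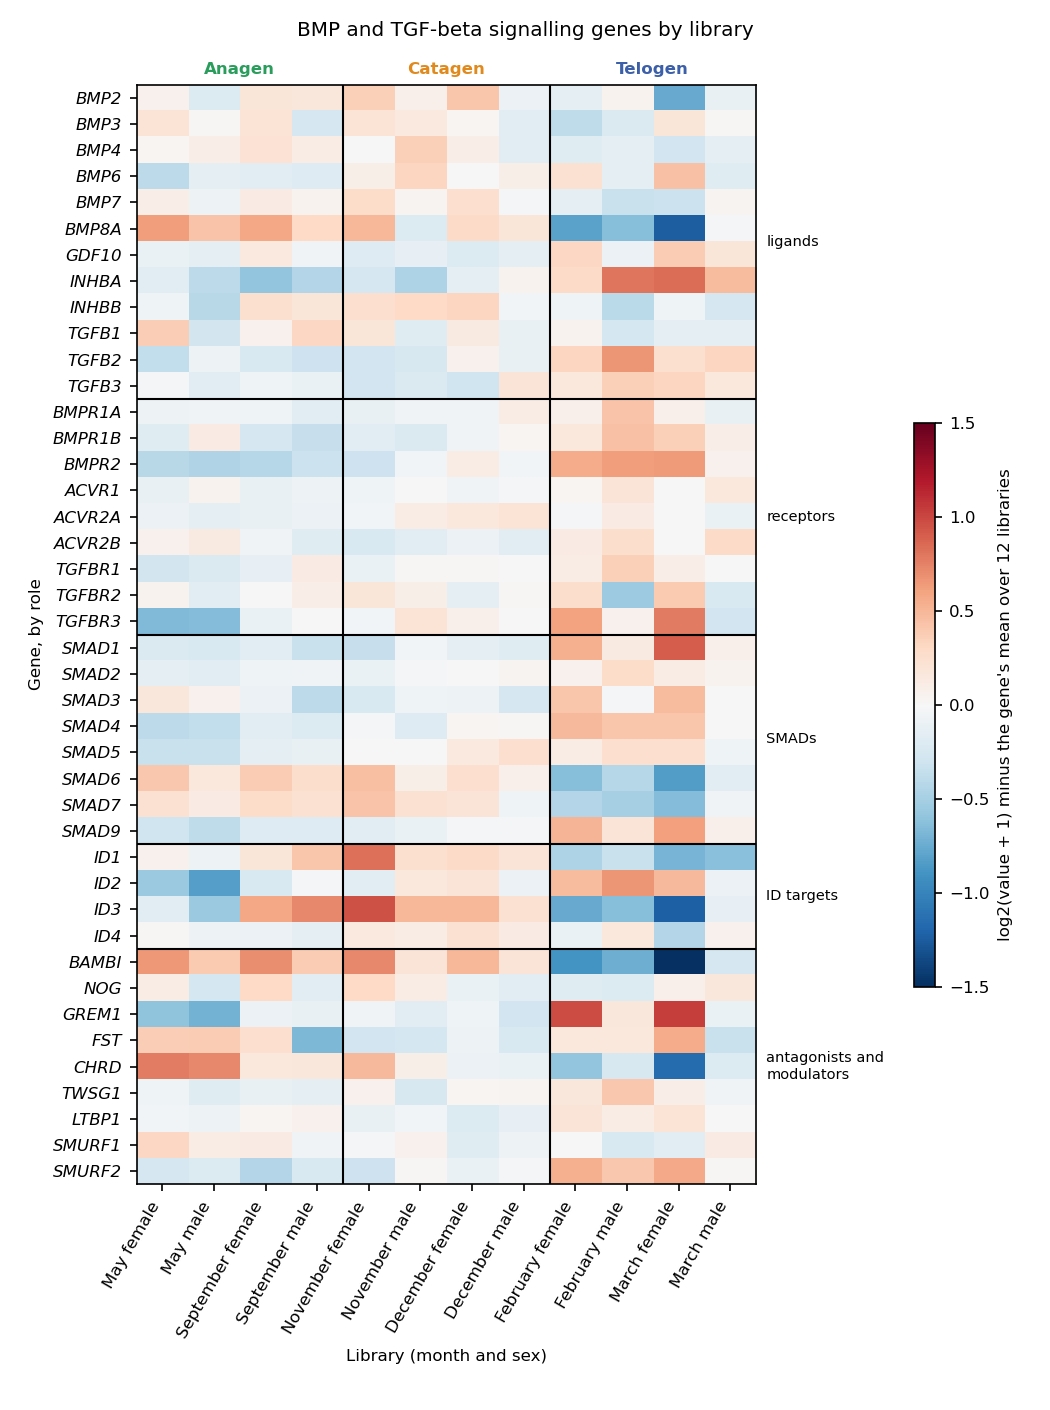
Each cell shows 1 of the 42 genes (rows, by role) in 1 of the 12 libraries (columns, by month and sex) as log2(value + 1) minus the gene's mean over the libraries; red is above and blue below that mean. The telogen columns carry most of the strong colours, for example BAMBI, ID3 and BMP8A in blue and INHBA, BMPR2 and GREM1 in red, and the March male column is paler than the other 3.

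The heat map of all members by library shows the stages side by side. In all, 29 members passed in at least 1 of the telogen comparisons, which share the telogen libraries. Of these, 5 passed against catagen and not against anagen (BMP7, INHBB, ACVR2B, SMAD3 and LTBP1) and 7 against anagen and not against catagen (BMP4, TGFBR1, TGFBR3, SMAD2, SMAD5, ID2 and TWSG1); the difference between the comparisons was not tested. A total of 12 members passed neither (BMP2, BMP3, BMP6, TGFB1, BMPR1A, ACVR1, ACVR2A, TGFBR2, ID4, NOG, FST and SMURF1). The shares of all genes in these groups were not counted, so nothing about the pathway is read from the 29, 5, 7 and 12. On the log2(value + 1) scale, only ID3 and BAMBI changed by 2-fold or more against catagen, and only BMP8A and BAMBI against anagen. All 4 telogen libraries lay outside the catagen range in 14 of the members that passed, where 32.8% of all genes passed without overlap, and outside the anagen range in 18, where 41.4% did. Without the March male library 22 members passed against catagen, 21 of them among the 22 above, and 27 passed against anagen, 24 of them among the 24 above. With 1 library left out at a time, 5257 to 7545 of all genes passed against catagen and 7337 to 8668 against anagen. Without both May libraries 17 passed against anagen (9 higher and 8 lower), 15 of them shared. Under this and the other alternatives that did not leave out a single library, 6087 to 9880 of all genes passed against anagen. With every library scaled to the same sum, 14 members passed as higher and 6 as lower than in catagen, and all genes split into 4373 higher and 2052 lower in place of 3948 and 3063.

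**Figure D2:**
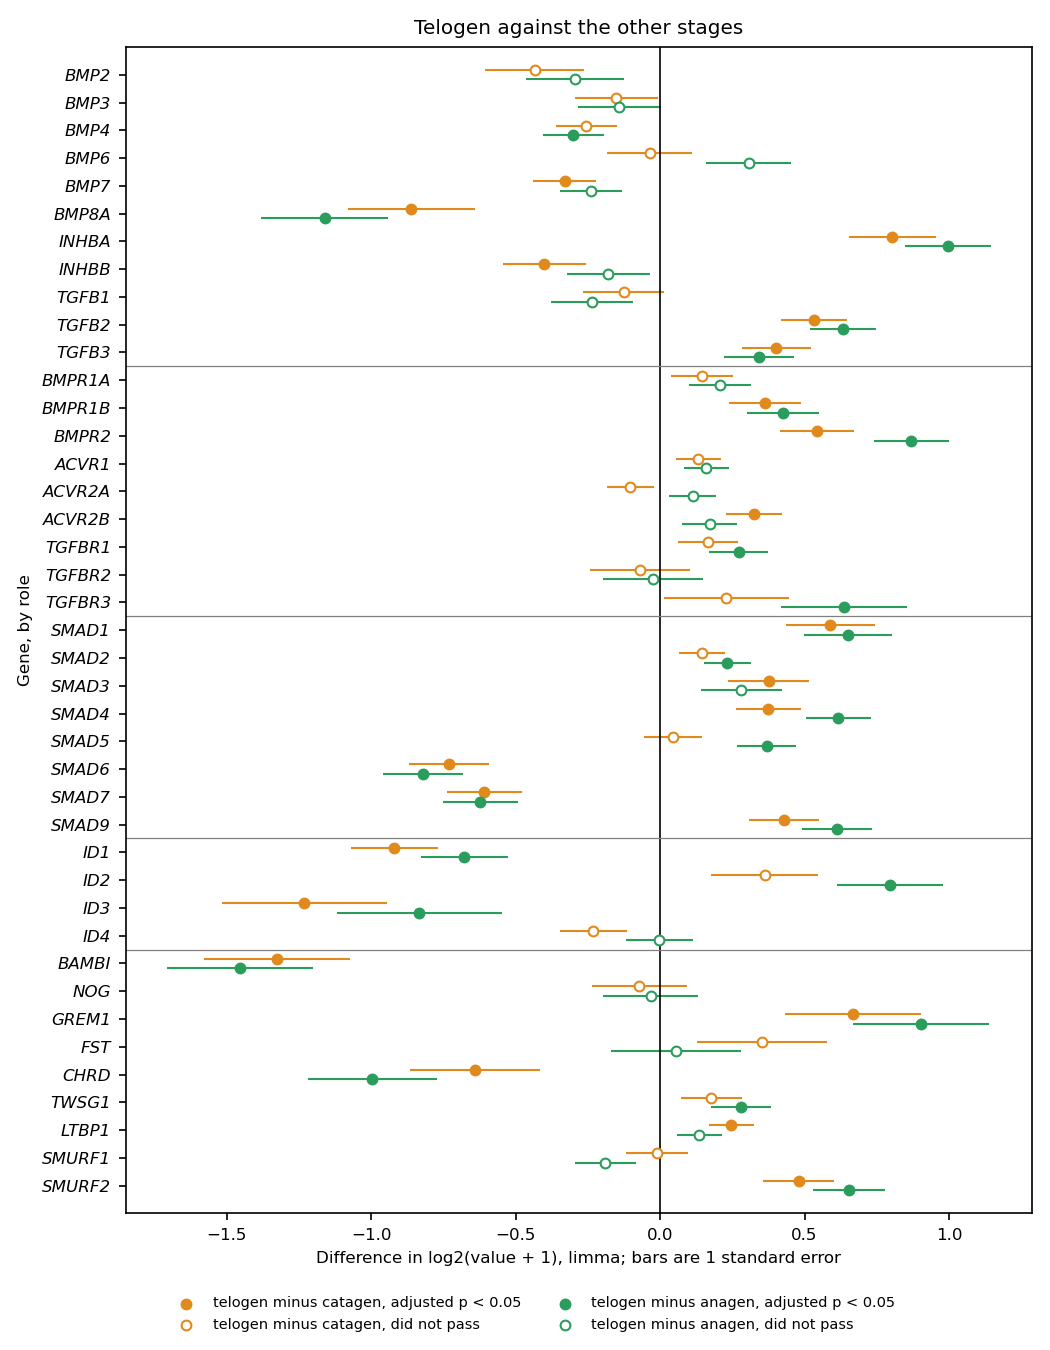
Points give the fitted difference in log2(value + 1) of the 41 tested members (rows, by role) between telogen and catagen (orange) and between telogen and anagen (green), with bars of 1 standard error; filled points passed at adjusted p below 0.05. Filled points on the left include BMP8A, SMAD6, SMAD7, ID1, ID3, BAMBI and CHRD, and filled receptor points all lie on the right.

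The plot of telogen differences orders the members by role. Among ligands 3 rose and 3 fell of 11 against catagen, and 3 rose and 2 fell against anagen. Of the 9 receptors, 3 rose against catagen and 4 against anagen, and none fell; the other receptors did not pass. Receptors passed in 33.3% and 44.4% of cases, below the 43.6% and 52.9% of all genes. Of the 8 SMADs, 4 rose and 2 fell against catagen (75% passed), and 5 rose and 2 fell against anagen (87.5%). With 8 to 11 genes in a role and these shares in all genes, nothing is read from the counts by role. Marker sums of other cell types also differed over these libraries. The summed hair shaft keratins (8 of 16 measured, none at 0) ran from 1157 to 1405 in anagen, 977 to 1499 in catagen and 333 to 1010.4 in telogen. KRT31, KRT33A, KRT33B, KRT34, KRT81, KRT83, KRT85 and KRT86 were not found by symbol, so this sum leaves them out. The T and B cell markers (10 of 10, with CD79B at 0 in 1 library) summed to 27.9 to 36.2, 28.1 to 41.1 and 54.3 to 82.8 in the same order. Schwann cell markers (8 of 8, none at 0) summed to 65.7 to 77.0, 71.3 to 90.3 and 100.6 to 176, and myeloid markers (8 of 10, none at 0) to 48.8 to 64.1, 39.7 to 50.8 and 55.8 to 105. The inner root sheath sums were 16620.2 to 21302 in anagen, 12699 to 19180 in catagen and 3693 to 12548 in telogen. Outer root sheath and bulge markers (10 of 12) summed to 12299 to 15800, 9927 to 14790 and 6751 to 9073. Single genes of that list mostly went the other way. In telogen 3 passed as higher and 1 as lower against catagen, and 5 as higher and 2 as lower against anagen. The lower sum therefore does not stand for the whole list. Dermal papilla markers (12 of 12) summed to 76.8 to 119.4, 92.5 to 110.8 and 98.3 to 126.2. The telogen sums of the fibroblast, epidermis, endothelium, smooth muscle, skeletal muscle and melanocyte lists also overlapped those of both other stages. The part of these cell types in the members' differences was not tested.

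Between catagen and anagen 0 of 41 members passed limma's test, where 9 of all genes did (0.0559%). At an unadjusted p below 0.05 there were 6 members (BMP6, BMPR2, ACVR2A, SMAD4, SMAD5 and ID2), all with higher fitted values in catagen, beside 15.7% of all genes. The median difference of the members was 0.09 and that of all genes -0.02. BMPR2, the type II BMP receptor, had its 4 catagen libraries (48.4 to 64.9) above its 4 anagen libraries (44.0 to 48.2), with a log2 difference of 0.33 ± 0.13 (adjusted p = 0.273).

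Because the values are per length, levels can be set side by side. Averaged over all 12 libraries and stages, the ID genes had the highest levels of the members, with means of 182 for ID3, 116 for ID1, 109 for ID4 and 70.8 for ID2. The order differs by stage: in anagen the mean of ID2 (52.1) was below those of BMPR1A (64.5) and SMAD2 (61.0). The ranges of the ID genes overlapped, at 69.9 to 321, 67.5 to 196, 79.6 to 127 and 38.0 to 108. The type I BMP receptor BMPR1A (69.1), the TGF-beta receptor SMAD SMAD2 (66.0) and BMPR2 (62.7) followed. BMP4 (35.9) was the most abundant ligand, followed by INHBB (22.6), BMP2 (21.7) and TGFB2 (21.2), whose ranges overlap one another. The lowest members were BMP6 (2.37), NOG (0.783) and GDF10 (0.57).

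Of the 11 tested ligands, TGFB2 and INHBA rose most in telogen on the log2(value + 1) scale. TGFB2 encodes TGF-beta 2, and INHBA encodes the beta A subunit of activin A. TGFB2 measured 15.8, 19.7, 17.5 and 16.6 in anagen, 16.9, 17.4, 21.6 and 19.1 in catagen and 26.2, 33.4, 24.7 and 26.1 in telogen, in the order female then male of May and September, of November and December, and of February and March. This order, and the order against catagen then against anagen for pairs of log2 differences, holds for all values below. All telogen values lay above all others, and the February male was the highest. Stage means were 17.4 ± 1.67, 18.7 ± 2.14 and 27.6 ± 3.9 (SD, n = 4 each) in anagen, catagen and telogen, and the log2 difference (± SE) of telogen was 0.53 ± 0.11 (adjusted p = 0.0032) against catagen and 0.63 ± 0.11 (adjusted p = 0.000733) against anagen. INHBA measured 6.98, 5.75, 4.91 and 5.57 in anagen, 6.45, 5.43, 7.07 and 8.19 in catagen and 9.89, 14.5, 14.9 and 11.3 in telogen. Its telogen libraries also lay above the rest, with means of 5.8 ± 0.864, 6.79 ± 1.16 and 12.6 ± 2.43. On the log2 scale the difference was 0.80 ± 0.15 (adjusted p = 0.00158) against catagen and 1.00 ± 0.15 (adjusted p = 0.000295) against anagen.

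TGFB3, encoding TGF-beta 3, was low, at 3.81, 3.34, 3.67 and 3.57 in anagen, 3.01, 3.22, 2.97 and 4.6 in catagen and 4.49, 5.27, 5.11 and 4.46 in telogen. The December male stood above the other catagen libraries and inside the telogen range, whereas anagen and telogen did not overlap. The log2 difference was 0.40 ± 0.12 (adjusted p = 0.0175) against catagen and 0.34 ± 0.12 (adjusted p = 0.030) against anagen. Against catagen, TGFB3 did not pass without the female library of November or December, or after quantile normalization (adjusted p = 0.0507 to 0.0606). The TGFB3 difference from anagen did not pass without the female library of September or March or the male library of May, September or February, or with the 2 libraries of each month averaged or without both May libraries (adjusted p = 0.0516 to 0.113). TGFB1, encoding TGF-beta 1, measured 18.9, 11.8, 15.2 and 18.1 in anagen, 16.6, 12.6, 15.9 and 13.4 in catagen and 15.1, 11.9, 13.1 and 13.1 in telogen. Its stages overlapped, and it did not pass (-0.13 ± 0.14, adjusted p = 0.487 and -0.24 ± 0.14, adjusted p = 0.174). Without the May male it passed against anagen (-0.37, adjusted p = 0.0295).

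BMP8A, a BMP ligand, fell. It measured 6.56, 5.59, 6.31 and 5.02 in anagen, 5.9, 3.22, 4.94 and 4.53 in catagen and 1.8, 2.14, 1.07 and 3.82 in telogen. Telogen lay below anagen in every library, while the March male (3.82) was above the November male of catagen (3.22). Means were 5.87 ± 0.70, 4.65 ± 1.11 and 2.21 ± 1.16, a log2 difference of -0.86 ± 0.22 (adjusted p = 0.00801) and -1.16 ± 0.22 (adjusted p = 0.0010). BMP8A has a close copy, BMP8B, and how the authors' estimates split reads between them is not known here, so both are uncertain as single genes.

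BMP2 and BMP4 are the BMP ligands best known from hair follicles, and of the pair BMP4 passed against anagen. BMP4 measured 36.4, 38.3, 41.5 and 38.5 in anagen, 35.3, 46.0, 38.2 and 31.7 in catagen and 31.3, 32.3, 28.9 and 32.4 in telogen. Every telogen library was below every anagen library and the December male of catagen (31.7) lay inside the telogen range. Telogen minus the other stage was, in log2, -0.30 ± 0.11 (adjusted p = 0.0283) against anagen, which passed, and -0.26 ± 0.11 (adjusted p = 0.0638) against catagen, which did not. BMP4 missed the threshold against anagen without the female library of September, February or March or the male library of May, or with every library scaled to the same sum, with that scaling after mitochondrial and ribosomal protein transcripts were left out, with the 2 libraries of each month averaged or without both May libraries (adjusted p = 0.0503 to 0.16). Without the December male BMP4 also passed against catagen (-0.33, adjusted p = 0.0238). BMP2 measured 22.2, 18.3, 24.3 and 24.0 in anagen, 27.5, 22.4, 28.6 and 20.0 in catagen and 19.0, 22.02, 12.1 and 19.5 in telogen. The March female was the lowest library and the stages overlapped, with log2 differences of -0.43 ± 0.17 (adjusted p = 0.0535) and -0.30 ± 0.17 (adjusted p = 0.158). BMP2 passed against catagen in 4 alternatives: among genes with a mean of at least 5 (adjusted p = 0.0484), with the same sum without mitochondrial and ribosomal protein transcripts (0.0476), without the December male (0.0356) and without the February male (0.0327).

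INHBB, encoding the activin beta B subunit, measured 21.3, 16.5, 26.4 and 25.3 in anagen, 26.6, 27.6, 28.1 and 21.6 in catagen and 21.3, 16.6, 21.2 and 18.6 in telogen. All catagen libraries were above all telogen libraries, and 3 of the 4 catagen libraries were above every anagen library. Anagen overlapped telogen and the lowest catagen library, with the May libraries low. Telogen differed by a log2 value of -0.40 ± 0.14 (adjusted p = 0.0375) against catagen and -0.18 ± 0.14 (adjusted p = 0.307) against anagen. Against catagen, INHBB did not pass without the female library of November or December or the male library of November, February or March, or with every library scaled to the same sum, with that scaling after mitochondrial and ribosomal protein transcripts were left out, after quantile normalization or with the 2 libraries of each month averaged (adjusted p = 0.0505 to 0.107). BMP6, a low BMP ligand, measured 1.53, 2.04, 1.99 and 1.91 in anagen, 2.52, 3.17, 2.34 and 2.54 in catagen and 2.89, 2.04, 3.51 and 1.94 in telogen. Its catagen libraries were above its anagen libraries and telogen overlapped both, with log2 differences of 0.34 ± 0.15 (adjusted p = 0.294) for catagen against anagen, -0.04 ± 0.15 (adjusted p = 0.856) for telogen against catagen and 0.31 ± 0.15 (adjusted p = 0.094) against anagen. Without the March male BMP6 passed against anagen (0.40, adjusted p = 0.0392). BMP7 (range 11.3 to 17.9) passed against catagen (-0.33 ± 0.11, adjusted p = 0.0261) and not against anagen. The BMP7 difference from catagen did not pass without the female library of November, December or March or the male library of February, or with every library scaled to the same sum, with that scaling after mitochondrial and ribosomal protein transcripts were left out or in a fit of the 2 stages alone (adjusted p = 0.0527 to 0.157). BMP3 (range 5.79 to 9.17) passed neither, and GDF10 (range 0.35 to 1.03) was not tested.

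**Figure D3:**
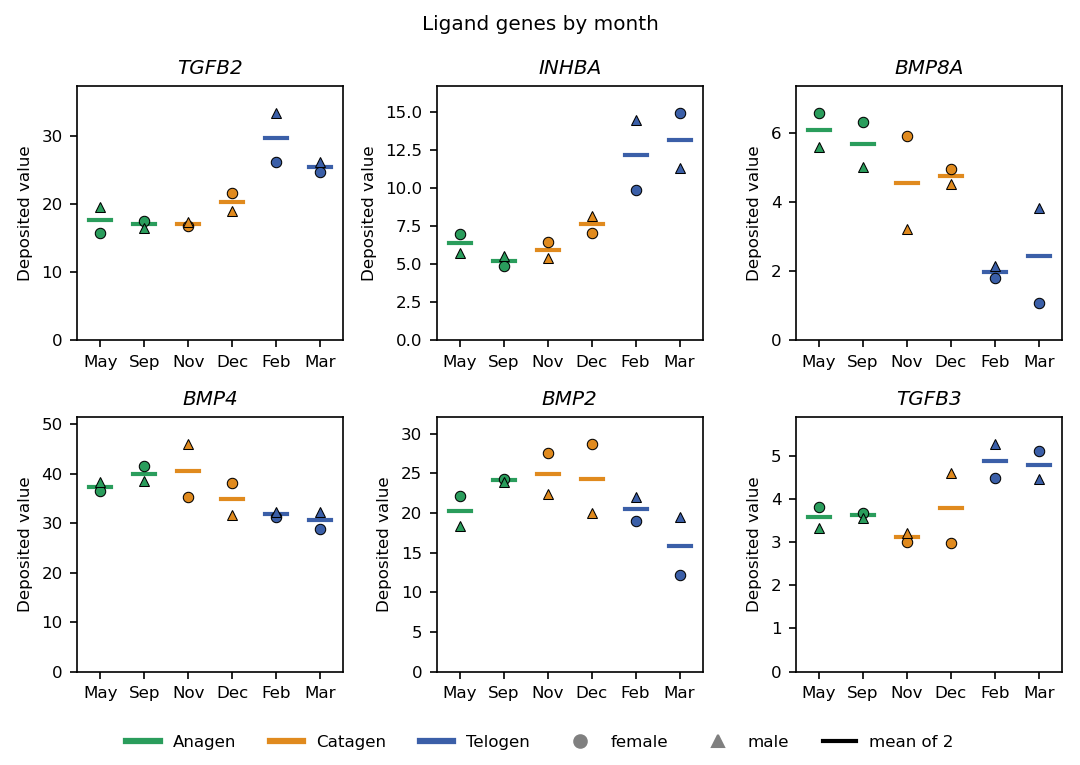
Deposited values (y axis, linear from 0) of 6 ligand genes by month (x axis), with circles for females, triangles for males, colour for stage and a bar at the mean of the 2 libraries of a month. TGFB2 and INHBA lie highest in February and March, BMP8A lies lowest there, and the stages of BMP2 overlap.

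The plot of ligand values by month shows how far the 2 libraries of a month differed: the March libraries of BMP8A were 1.07 and 3.82, and those of BMP2 were 12.1 and 19.5.

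Among receptors, BMPR2 changed most. It measured 45.04, 44.0, 44.7 and 48.2 in anagen, 48.4, 58.5, 64.9 and 58.5 in catagen and 88.8, 93.9, 93.98 and 63.1 in telogen. In telogen 3 libraries lay at 88.76 to 93.98, the March male (63.1) lay within the catagen range, and every telogen library was above every anagen library. Means were 45.5 ± 1.85, 57.6 ± 6.79 and 84.9 ± 14.8, and the log2 difference was 0.54 ± 0.13 (adjusted p = 0.00555) and 0.87 ± 0.13 (adjusted p = 0.000282). BMPR1B, another type I BMP receptor at a low level, measured 4.01, 5.2, 3.77 and 3.46 in anagen, 4.05, 3.9, 4.47 and 4.79 in catagen and 5.34, 6.71, 6.27 and 5.06 in telogen. Telogen lay above catagen in all libraries but not above the May male (5.20), with log2 differences of 0.36 ± 0.12 (adjusted p = 0.0313) and 0.43 ± 0.12 (adjusted p = 0.012). BMPR1B missed the threshold against catagen without the female library of November or March or the male library of November or February, or after quantile normalization or with the 2 libraries of each month averaged (adjusted p = 0.0736 to 0.0841).

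BMPR1A, the main type I BMP receptor of skin, measured 65.0, 66.2, 65.6 and 61.2 in anagen, 63.5, 66.4, 66.2 and 74.1 in catagen and 72.8, 92.4, 72.6 and 63.5 in telogen. Its February male was highest and the stages overlapped, with log2 differences of 0.14 ± 0.11 (adjusted p = 0.291) and 0.21 ± 0.11 (adjusted p = 0.117), neither of which passed. The difference from anagen passed without the March male (0.28, adjusted p = 0.0313) and with the same sum without mitochondrial and ribosomal protein transcripts (0.30, adjusted p = 0.0383). ACVR2B, a type II receptor shared by activins and BMPs, measured 16.5, 17.4, 15.2 and 13.8 in anagen, 13.3, 13.9, 14.8 and 13.9 in catagen and 17.2, 19.0, 15.6 and 19.4 in telogen. Telogen was above catagen in every library and overlapped anagen, with log2 differences of 0.32 ± 0.10 (adjusted p = 0.0162) and 0.17 ± 0.10 (adjusted p = 0.146). Against catagen, ACVR2B did not pass with the 2 libraries of each month averaged (adjusted p = 0.065). TGFBR2, the type II TGF-beta receptor, measured 25.8, 22.3, 24.7 and 26.7 in anagen, 28.4, 26.6, 22.5 and 25.2 in catagen and 30.0, 16.7, 33.1 and 21.1 in telogen. Within telogen the females (30.0 and 33.1) were higher than the males (16.7 and 21.1), and the log2 differences between stages were -0.07 ± 0.17 (adjusted p = 0.766) and -0.03 ± 0.17 (adjusted p = 0.911).

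Of the other receptors, TGFBR3, the co-receptor betaglycan (range 22.2 to 61.7), and TGFBR1, the type I TGF-beta receptor (range 17.9 to 28.4), passed against anagen alone, with log2 differences of 0.64 ± 0.22 (adjusted p = 0.0258) and 0.27 ± 0.10 (adjusted p = 0.0416). The TGFBR3 difference from anagen did not pass without the female library of May, February or March or the male library of May, or in a fit of the 2 stages alone or without both May libraries (adjusted p = 0.0548 to 0.294). Without both May libraries the TGFBR3 difference was 0.33 and the TGFBR1 difference 0.15. TGFBR1 missed the threshold against anagen without the female library of May, September, December, February or March or the male library of May, November, December or February, or with the 2 libraries of each month averaged, in a fit of the 2 stages alone or without both May libraries (adjusted p = 0.0522 to 0.356). ACVR1 (range 28.7 to 35.7) and ACVR2A (range 33.3 to 42.7) passed neither comparison.

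Among SMADs, SMAD1, SMAD4 and SMAD9 rose and the inhibitory SMAD6 and SMAD7 fell against both stages. SMAD1, a BMP receptor SMAD, measured 26.9, 26.6, 27.8 and 24.7 in anagen, 24.6, 30.5, 28.4 and 27.5 in catagen and 45.9, 34.6, 59.7 and 33.1 in telogen. All telogen libraries were above all others, with the females (45.9 and 59.7) above the males (34.6 and 33.1). On the log2 scale the difference was 0.59 ± 0.15 (adjusted p = 0.00885) and 0.65 ± 0.15 (adjusted p = 0.00369). SMAD9, a lower BMP receptor SMAD, measured 5.4, 5.02, 5.88 and 5.84 in anagen, 5.99, 6.33, 6.72 and 6.66 in catagen and 10.1, 7.96, 11.0 and 7.25 in telogen. Telogen again did not overlap the other stages, and the log2 difference was 0.43 ± 0.12 (adjusted p = 0.0131) and 0.61 ± 0.12 (adjusted p = 0.00126).

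SMAD4, the partner that all receptor SMADs share, measured 33.5, 34.2, 39.2 and 38.3 in anagen, 43.3, 38.8, 45.4 and 44.9 in catagen and 62.7, 59.4, 59.8 and 44.2 in telogen. The March male (44.2) lay within the catagen range, and all telogen libraries were above anagen, with means of 36.3 ± 2.87, 43.1 ± 3.0 and 56.5 ± 8.32. The log2 difference was 0.37 ± 0.11 (adjusted p = 0.0177) and 0.62 ± 0.11 (adjusted p = 0.000793). Against catagen, SMAD4 did not pass without the female library of February or the male library of November, or with the 2 libraries of each month averaged (adjusted p = 0.0528 to 0.0567). SMAD5, the other BMP receptor SMAD, measured 26.8, 26.8, 30.9 and 31.5 in anagen, 33.9, 33.9, 37.7 and 40.7 in catagen and 37.0, 40.7, 40.7 and 32.6 in telogen. It was lowest in May, and catagen and telogen overlapped; telogen passed against anagen (0.37 ± 0.10, adjusted p = 0.00864) and not against catagen (0.04 ± 0.10, adjusted p = 0.745). The SMAD5 difference from anagen did not pass without both May libraries (adjusted p = 0.114).

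SMAD3, a receptor SMAD for TGF-beta and activin, measured 22.7, 21.0, 18.9 and 15.2 in anagen, 17.1, 19.1, 19.0 and 16.7 in catagen and 27.1, 19.9, 28.3 and 20.3 in telogen. Telogen was above catagen in every library and overlapped anagen. Telogen minus the other stage was, in log2, 0.38 ± 0.14 (adjusted p = 0.0447) and 0.28 ± 0.14 (adjusted p = 0.108). SMAD3 missed the threshold against catagen without the female library of September, November, December, February or March or the male library of May, November or December, or with every library scaled to the same sum, with that scaling after mitochondrial and ribosomal protein transcripts were left out or with the 2 libraries of each month averaged (adjusted p = 0.051 to 0.127). SMAD2 (range 58.1 to 79.5) passed against anagen alone (0.23 ± 0.08, adjusted p = 0.0266). Against anagen, SMAD2 did not pass without the female library of May or the male library of May or February, or with the 2 libraries of each month averaged, in a fit of the 2 stages alone or without both May libraries (adjusted p = 0.0549 to 0.187).

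SMAD6, which inhibits BMP receptor signalling, measured 15.6, 12.9, 15.2 and 14.0 in anagen, 16.1, 12.2, 13.9 and 12.1 in catagen and 7.04, 8.25, 6.0 and 10.1 in telogen. Every telogen value was below every other value, with the March male nearest to them. Means were 14.4 ± 1.21, 13.6 ± 1.85 and 7.84 ± 1.75, and the log2 difference was -0.73 ± 0.14 (adjusted p = 0.00171) and -0.82 ± 0.14 (adjusted p = 0.000536). SMAD7, which inhibits both branches of the pathway, measured 22.4, 20.8, 23.2 and 22.4 in anagen, 25.9, 22.4, 21.9 and 18.2 in catagen and 13.7, 13.2, 11.72 and 18.3 in telogen. The March male (18.3) was just above the December male of catagen (18.2), and telogen lay below anagen throughout, with log2 differences of -0.61 ± 0.13 (adjusted p = 0.0032) and -0.62 ± 0.13 (adjusted p = 0.0018).

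**Figure D4:**
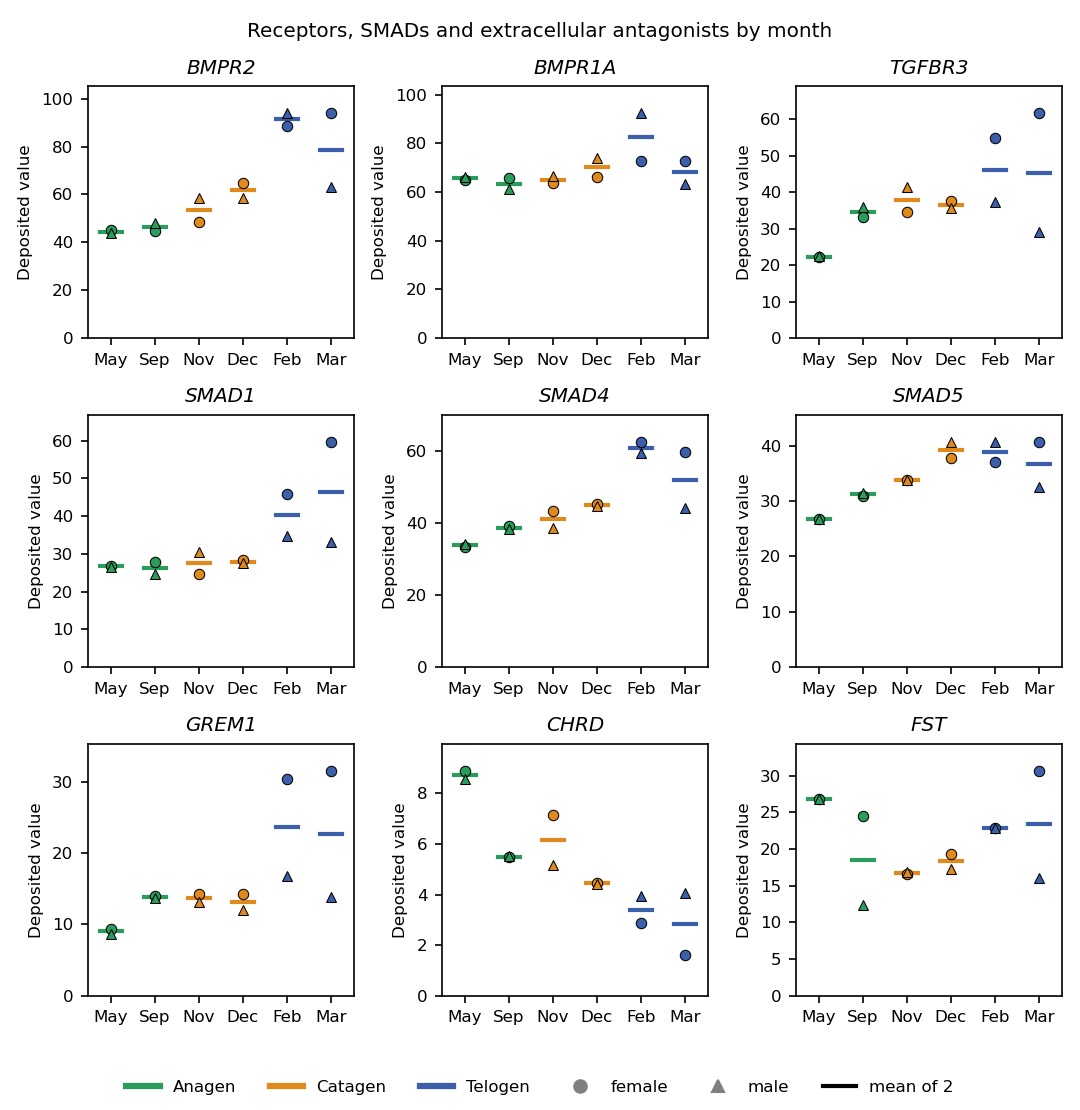
Deposited values (y axis, linear from 0) of 3 receptors, 3 SMADs and 3 extracellular antagonists by month (x axis), with circles for females, triangles for males, colour for stage and a bar at the mean of the 2 libraries of a month. BMPR2 and SMAD4 are highest in February, and GREM1, SMAD1 and TGFBR3 show telogen females above telogen males.

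The plot of receptors, SMADs and antagonists shows BMPR2 at monthly means of 44.5 in May, 46.4 in September, 53.4 in November, 61.7 in December, 91.3 in February and 78.5 in March.

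Of the 4 ID genes, ID1 and ID3 fell in telogen, ID2 rose against anagen, and ID4 did not pass. ID proteins bind basic helix-loop-helix transcription factors and block their binding to DNA. ID1 measured 116, 104, 125 and 148 in anagen, 196, 131, 135 and 127 in catagen and 79.7, 87.1, 67.5 and 71.3 in telogen. All telogen libraries were below all others, and the November female was the highest. Means were 123 ± 18.4, 147 ± 32.9 and 76.4 ± 8.78, and the log2 difference was -0.92 ± 0.15 (adjusted p = 0.000905) and -0.68 ± 0.15 (adjusted p = 0.00262). ID3 measured 147, 112, 249 and 273 in anagen, 321, 234, 233 and 194 in catagen and 97.3, 106, 69.9 and 152 in telogen. Telogen was below catagen in every library, but the May libraries (147 and 112) lay within the telogen range, and the log2 difference was -1.23 ± 0.29 (adjusted p = 0.00491) and -0.83 ± 0.29 (adjusted p = 0.0261). The ID3 difference from anagen did not pass without the female library of September, February or March or the male library of September (adjusted p = 0.0553 to 0.0793). Without both May libraries, the ID3 difference from anagen was -1.34.

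ID2 measured 46.0, 38.0, 58.0 and 66.5 in anagen, 60.8, 76.0, 77.7 and 63.8 in catagen and 95.3, 108, 95.6 and 64.2 in telogen. The May libraries were lowest, 3 telogen libraries were highest (95.3 to 108), and the March male (64.2) lay among the September and catagen libraries. Telogen differed by a log2 value of 0.80 ± 0.18 (adjusted p = 0.00325) against anagen and 0.36 ± 0.18 (adjusted p = 0.127) against catagen. ID2 missed the threshold against anagen without both May libraries (adjusted p = 0.0536). The ID2 difference was then 0.52. Against catagen ID2 passed with every library scaled to the same sum (0.45, adjusted p = 0.0392) and without the March male (0.52, adjusted p = 0.0237). ID4 measured 109, 102, 101 and 97.8 in anagen, 120.2, 117, 127 and 118 in catagen and 101, 121, 79.6 and 113 in telogen. Its March female was lowest, catagen lay above anagen in all libraries, and no difference passed (0.23 ± 0.12, adjusted p = 0.351 for catagen against anagen, -0.23 ± 0.12, adjusted p = 0.124 and -0.00 ± 0.12, adjusted p = 0.987 for telogen). Without the February male ID4 passed against catagen (-0.31, adjusted p = 0.0489).

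**Figure D5:**
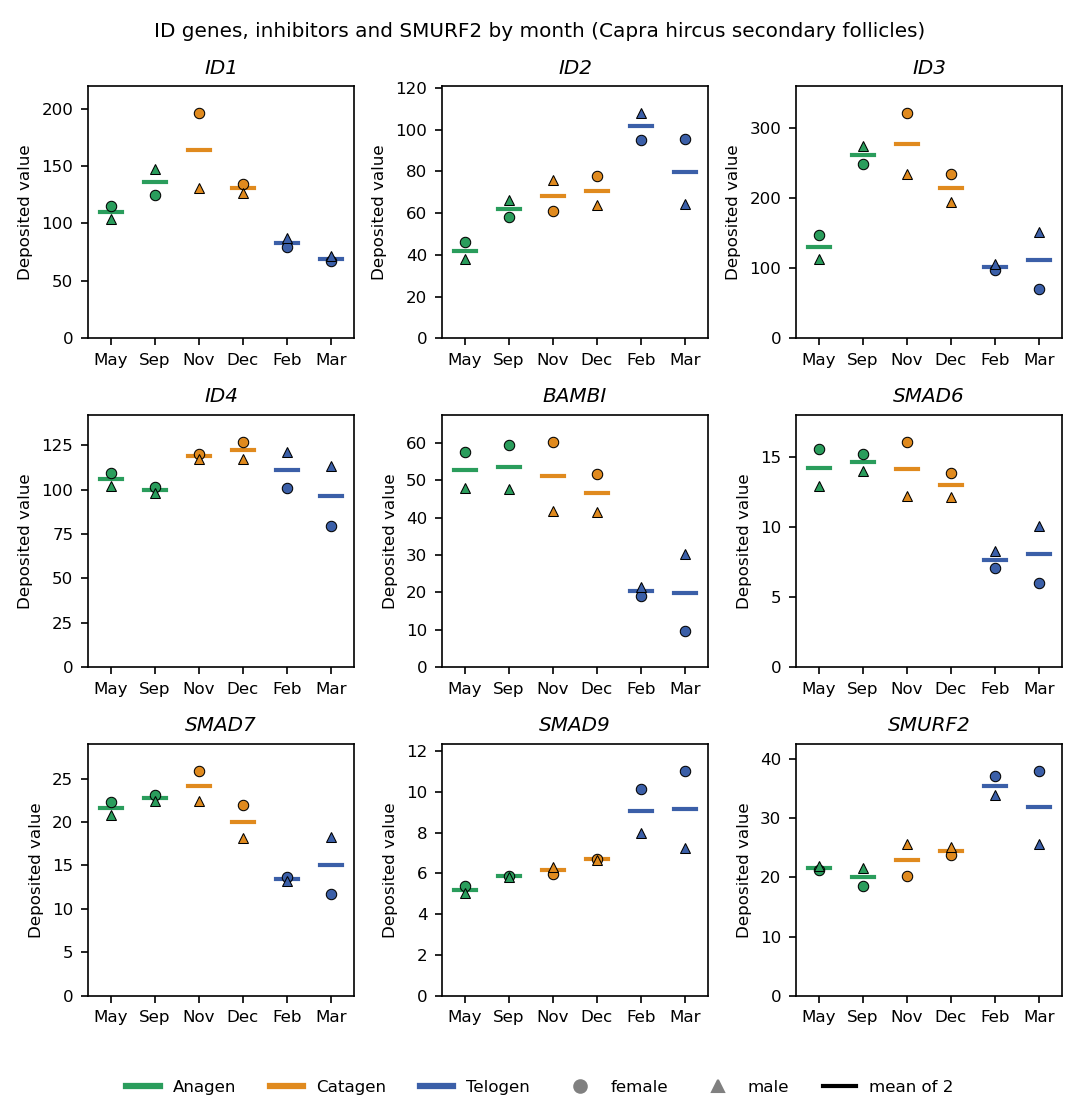
Deposited values (y axis, linear from 0) of the 4 ID genes, BAMBI, SMAD6, SMAD7, SMAD9 and SMURF2 by month (x axis), with circles for females, triangles for males, colour for stage and a bar at the mean of the 2 libraries of a month. ID1, BAMBI, SMAD6 and SMAD7 drop in February and March, whereas ID2, SMAD9 and SMURF2 are highest there.

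BAMBI had the largest fitted log2 differences of the 41 tested members in both telogen comparisons. It encodes a receptor-like protein without a kinase domain that blocks TGF-beta and BMP receptors. BAMBI measured 57.6, 47.9, 59.4 and 47.7 in anagen, 60.3, 41.9, 51.7 and 41.6 in catagen and 19.1, 21.4, 9.56 and 30.3 in telogen. All telogen libraries were below all others, with the March female lowest (9.56) and the March male highest (30.3) among them. Means were 53.1 ± 6.25, 48.8 ± 8.98 and 20.1 ± 8.52, and the log2 difference was -1.33 ± 0.25 (adjusted p = 0.0018) and -1.45 ± 0.25 (adjusted p = 0.000616). The plot of ID genes and inhibitors by month shows BAMBI, SMAD6 and SMAD7 lower together in both telogen months.

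The ligand antagonists went different ways. CHRD, which encodes chordin, measured 8.9, 8.56, 5.47 and 5.52 in anagen, 7.14, 5.18, 4.47 and 4.42 in catagen and 2.86, 3.94, 1.62 and 4.05 in telogen. Telogen was below both other stages in every library and May was the highest month, with log2 differences of -0.64 ± 0.22 (adjusted p = 0.0341) and -0.996 ± 0.22 (adjusted p = 0.00271). Against catagen, CHRD did not pass without the female library of November, February or March or the male library of November, or with every library scaled to the same sum or with the 2 libraries of each month averaged (adjusted p = 0.0547 to 0.107). GREM1, which encodes gremlin 1, measured 9.41, 8.71, 13.9 and 13.7 in anagen, 14.3, 13.1, 14.2 and 12.1 in catagen and 30.4, 16.9, 31.6 and 13.9 in telogen. The telogen females (30.4 and 31.6) were highest, while telogen males (16.9 and 13.9) were near the catagen and September libraries, so the groups overlapped. On the log2 scale the difference was 0.67 ± 0.24 (adjusted p = 0.0357) and 0.90 ± 0.24 (adjusted p = 0.00645). The GREM1 difference from catagen did not pass without the female library of November, December, February or March or the male library of November or December (adjusted p = 0.0545 to 0.109). GREM1 missed the threshold against anagen without both May libraries (adjusted p = 0.0942).

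NOG, which encodes noggin, was near the filter, at 0.91, 0.47, 1.18 and 0.58 in anagen, 1.18, 0.91, 0.65 and 0.57 in catagen and 0.56, 0.53, 0.86 and 0.99 in telogen. Its stages overlapped and it did not pass (-0.07 ± 0.17, adjusted p = 0.745 and -0.03 ± 0.17, adjusted p = 0.881). FST, which encodes the activin antagonist follistatin, measured 26.8, 26.9, 24.5 and 12.4 in anagen, 16.6, 16.9, 19.3 and 17.3 in catagen and 22.9, 22.9, 30.7 and 16.1 in telogen. The September male was lowest and the March female highest, the stages overlapped, and neither difference passed (0.35 ± 0.22, adjusted p = 0.219 and 0.06 ± 0.22, adjusted p = 0.852). TWSG1, a secreted BMP modulator, measured 40.0, 36.9, 39.0 and 37.8 in anagen, 44.1, 35.3, 43.1 and 43.4 in catagen and 47.3, 55.8, 45.02 and 40.5 in telogen. Telogen was above anagen in every library and overlapped catagen, with log2 differences of 0.18 ± 0.11 (adjusted p = 0.19) and 0.28 ± 0.11 (adjusted p = 0.0393), of which that against anagen passed. Against anagen, TWSG1 did not pass without the female library of May, September, December, February or March or the male library of May, September or February, or with the 2 libraries of each month averaged, in a fit of the 2 stages alone or without both May libraries (adjusted p = 0.0501 to 0.13).

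SMURF2, a ubiquitin ligase that marks SMADs and receptors for degradation, measured 21.3, 21.99, 18.5 and 21.6 in anagen, 20.3, 25.7, 23.7 and 25.1 in catagen and 37.1, 33.9, 38.1 and 25.7 in telogen. Telogen was above anagen in every library, and the March male (25.68) was just below the November male of catagen (25.71). Means were 20.9 ± 1.57, 23.7 ± 2.44 and 33.7 ± 5.62, and the log2 difference was 0.48 ± 0.12 (adjusted p = 0.00842) and 0.65 ± 0.12 (adjusted p = 0.000992). Its relative SMURF1 (range 8.6 to 12.9) passed neither comparison. LTBP1, which holds latent TGF-beta in the matrix (range 46.5 to 61.9), passed against catagen (0.25 ± 0.08, adjusted p = 0.0233). The LTBP1 difference from catagen did not pass without the female library of December, February or March, or with the 2 libraries of each month averaged or in a fit of the 2 stages alone (adjusted p = 0.0524 to 0.105).

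With the 2 libraries of each month averaged, so that a stage has 2 values, 15 of the 22 members still passed against catagen and 19 of the 24 against anagen. A total of 12 members passed against catagen under every alternative tried (BMP8A, INHBA, TGFB2, BMPR2, SMAD1, SMAD6, SMAD7, SMAD9, ID1, ID3, BAMBI and SMURF2), and 14 did against anagen (BMP8A, INHBA, TGFB2, BMPR1B, BMPR2, SMAD1, SMAD4, SMAD6, SMAD7, SMAD9, ID1, BAMBI, CHRD and SMURF2). The shares of all genes that kept their calls in these ways are not given here, so nothing about the pathway is read from these counts. In the telogen group the March male was the library nearest the mean of the other stage in 16 of the 22 members (72.7%) against catagen, where this held for 60% of all genes that passed. It was nearest in 21 of 24 (87.5%) against anagen, where it held for 63.3% of all genes that passed.

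By month, members were most often highest in February (16 of 42) or November (11), and fewest were highest in September or December (3 each). Highest months were not counted over all genes. Neither these counts nor those of highest months below are read as a result about the pathway. A test over the 6 months, which assumes no stages, was passed by 13 of 41 members (31.7%), where 32.7% of all genes passed: INHBA, TGFB2, BMPR2, SMAD4, SMAD5, SMAD6, SMAD7, ID1, ID2, ID3, BAMBI, CHRD and SMURF2. Among these, 5 were highest in February, 3 in November, 2 in September and 1 each in May, December and March. CHRD went from 8.73 in May and 5.5 in September to 6.16, 4.45, 3.4 and 2.84 in the later months, and ID1 from 109.9 and 136 through 164 and 131 to 83.4 and 69.4. ID3 went from 129.6 and 261 through 277 and 214 to 102 and 111. When a library was left out, its month held 1 library. The count of members then fell in some fits and rose in others, as did that of all genes, and both ranges are given in the closing section.

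From December, the last catagen month, to February, the first telogen month, 3 of 41 members passed (7.32%), where 16.6% of all genes did (8.9% higher and 7.69% lower). TGFB2 was higher (0.52 ± 0.15, adjusted p = 0.0437), and ID1 (-0.64 ± 0.18, adjusted p = 0.0418) and ID3 (-1.06 ± 0.31, adjusted p = 0.0451) were lower in February. These calls lie close to the threshold with 2 libraries a month. With the sex of the library as a block, ID1 (adjusted p = 0.0506) and ID3 (adjusted p = 0.0582) did not pass. None of the 3 calls held under every alternative, which include fits with a single library left out and so 1 library in its month. The number of all genes that passed also changed widely in those fits, as given in the closing section.

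From March, the last telogen month, to May, the first anagen month, 14 of 41 members passed (34.1%), 5 higher and 9 lower in May, where 27.4% of all genes did (13.9% higher and 13.4% lower). In May BAMBI (1.56 ± 0.40, adjusted p = 0.0217), CHRD (1.42 ± 0.27, adjusted p = 0.00982), BMP8A (1.16 ± 0.35, adjusted p = 0.0368), SMAD6 (0.79 ± 0.22, adjusted p = 0.0281) and ID1 (0.66 ± 0.18, adjusted p = 0.0284) were higher. GREM1 (-1.13 ± 0.34, adjusted p = 0.0341), INHBA (-0.93 ± 0.20, adjusted p = 0.0131), TGFBR3 (-0.90 ± 0.29, adjusted p = 0.0461), ID2 (-0.89 ± 0.21, adjusted p = 0.0159), BMPR2 (-0.78 ± 0.18, adjusted p = 0.0155) and SMAD9 (-0.68 ± 0.18, adjusted p = 0.0253) were the 6 most lowered, and SMAD4, TGFB2 and SMAD5 were lower as well. None of the 14 calls held under every alternative, and leaving out a library of May or March leaves 1 library in that month. The number of all genes that passed changed widely in such fits as well, as given in the closing section. Without the March female the log2 differences were 0.77 for BAMBI, 0.55 for BMP8A, 0.95 for CHRD, 0.45 for SMAD6, -0.56 for GREM1 and -0.37 for TGFBR3, and -0.49, -0.38, -0.28 and -0.41 for BMPR2, SMAD4, SMAD5 and SMAD9. Without the March male those of BAMBI, BMP8A, GREM1 and TGFBR3 were 2.34, 1.77, -1.69 and -1.43. Both May libraries carry the skeletal muscle transcripts described above. They also had the lowest summed smooth muscle markers of the 12 libraries (521 and 389) and the highest summed fibroblast markers (1900 and 1907). The part of these transcripts in the members' differences was not tested.

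The 2 months labelled anagen were also compared. Between September and May 0 of 41 members passed limma's test, where 22 of all genes did (0.137%). At an unadjusted p below 0.05 there were 3 members, beside 9.77% of all genes. All 3 had higher fitted values in September: ID3 (1.01, unadjusted p = 0.00878, adjusted p = 0.375), ID2 (0.56, unadjusted p = 0.0222, adjusted p = 0.435) and INHBB (0.44, unadjusted p = 0.0305, adjusted p = 0.468).

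Between males and females over the year, with month as a block, 0 of 41 members passed limma's test, where 9 of all genes did (0.0559%). At an unadjusted p below 0.05 there were 3 members, beside 7.36% of all genes, each lower in males: GREM1 (-0.40, unadjusted p = 0.0293, adjusted p = 0.637), SMAD3 (-0.22, unadjusted p = 0.0411, adjusted p = 0.664) and INHBB (-0.21, unadjusted p = 0.0277, adjusted p = 0.631). A test of the difference between males and females in the change from catagen to telogen, added after the values were seen, was passed by 0 of 41 members, where 0.0186% of all genes passed. At an unadjusted p below 0.05 it gave 12 members (29.3%), where it gave 13.2% of all genes, and the lowest adjusted p among members was 0.263. The lowest p-values were those of SMAD1 (-0.74 ± 0.21, unadjusted p = 0.0045, adjusted p = 0.263), SMAD6 (0.71 ± 0.20, unadjusted p = 0.00538, adjusted p = 0.267) and BAMBI (1.27 ± 0.36, unadjusted p = 0.00544, adjusted p = 0.267). Each sex had 2 libraries per stage in this test. Summed endothelial markers (8 of 8, none at 0) were 206.5 and 238.6 in the telogen females and 120.9 and 129.6 in the telogen males. In the same order, epidermal markers (9 of 10 measured) were 6634 and 7779 against 4369.6 and 4349.8, melanocyte markers (8 of 8) 104.97 and 99.3 against 70.5 and 66.2, and myeloid markers 93.2 and 105 against 75.1 and 55.8. Schwann cell markers were 170.7 and 176.1 against 153.1 and 100.6. Hair shaft keratins were lower in these females (635 and 333) than in the males (774 and 1010.4), as were inner root sheath markers (8049 and 3693 against 10414 and 12548). Also lower were fibroblast (877 and 864 against 1276 and 1749), outer root sheath and bulge (7795 and 6751 against 8514 and 9073) and T and B cell markers (64.2 and 54.3 against 82.8 and 69.0). Dermal papilla, smooth muscle and skeletal muscle sums overlapped between the sexes. In the same test of the sexes' changes, all 8 hair shaft and 7 of 8 endothelial genes had an unadjusted p below 0.05, beside 13.2% of all genes. So did 5 of 7 inner root sheath, 5 of 8 Schwann, 4 of 9 epidermis, 3 of 7 myeloid and 3 of 8 melanocyte genes. Fewer did in the other lists: 2 of 12 dermal papilla, 1 of 10 fibroblast and 1 of 8 smooth muscle genes. The outer root sheath and bulge list gave 1 of 10, and the skeletal muscle and T and B cell lists 0 of 7 each. No gene of these lists passed after adjustment. The part of these cell types in the members' values, among them GREM1, SMAD1, TGFBR2 and TGFBR3, was not tested.

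Beyond the 42 members, 92 further genes of the pathway were listed, of which 87 were measured and 74 tested. Against catagen 32 passed (43.2%), 21 higher and 11 lower in telogen, where 43.6% of all genes passed. Against anagen 30 passed (40.5%), 19 higher and 11 lower, where 52.9% of all genes passed, so both shares are at or below those of all genes. No such gene passed between catagen and anagen by limma, where 7 had an unadjusted p below 0.05. BMP8B, the copy of BMP8A, measured 17.6, 18.7, 18.0 and 16.7 in anagen, 20.3, 11.99, 15.2 and 13.6 in catagen and 5.26, 6.4, 3.49 and 11.98 in telogen. Its telogen libraries were below all others, with log2 differences of -1.15 ± 0.25 (adjusted p = 0.00355) and -1.38 ± 0.25 (adjusted p = 0.000786). CDKN2B, a cell cycle inhibitor induced by TGF-beta, measured 61.9, 50.8, 52.4 and 52.8 in anagen, 66.4, 50.5, 48.1 and 55.5 in catagen and 24.8, 29.2, 17.9 and 41.7 in telogen. It too was below all other libraries in telogen, with log2 differences of -0.98 ± 0.19 (adjusted p = 0.00215) and -0.97 ± 0.19 (adjusted p = 0.00137). BGN, the matrix proteoglycan biglycan, and ITGB8, an integrin subunit that takes part in TGF-beta activation, were higher in all telogen libraries. Their log2 differences were 0.73 ± 0.19 (adjusted p = 0.00771) and 0.96 ± 0.19 (adjusted p = 0.00116) for BGN, and 0.60 ± 0.12 (adjusted p = 0.00186) and 0.96 ± 0.12 (adjusted p = 0.000147) for ITGB8. TAB1, a partner of the kinase TAK1, and STUB1, a ubiquitin ligase, were lower in all telogen libraries. Their log2 differences were -0.73 ± 0.17 (adjusted p = 0.00579) and -0.90 ± 0.17 (adjusted p = 0.00116) for TAB1, and -0.74 ± 0.13 (adjusted p = 0.00125) and -0.87 ± 0.13 (adjusted p = 0.000295) for STUB1.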

How the data were processed

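RNA of secondary hair follicles from 12 libraries was extracted with RNAiso Plus, per the labels' protocols, and sequenced on an Illumina HiSeq 4000. The submitters' processing notes name kallisto 0.46.1 and sleuth 0.30.0. The deposited values carry a TPM heading but do not sum to the same total in every library, so the authors rescaled them by steps not given in the sources used here, and they were treated as a signal. Read depth, genome build and read counts are not given in the sources used here, and precision was judged from the spread between libraries alone.

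Genes were matched by gene number to the RefSeq goat table (assembly ARS1.2, 20294 of 20326 matched); for 32 genes its symbol differed from that in the files. Values were tested as log2(value + 1) with limma 3.58.1 (R 4.3.3) with a mean-variance trend. The 16095 genes that reached 1 in 2 or more libraries were tested together, with Benjamini-Hochberg adjustment over the whole table and a threshold of 0.05. Stages and months were fitted over all 12 libraries, and sexes with month as a block. The code was tested on simulated data. The members, the 92 further genes and the 13 marker lists were chosen with earlier results of these data known. Values in every library are given for members that passed without overlap (at most 22, by size of change) and for 18 members chosen by name, 32 in all. Up to 6 further pathway genes are named by the same rule with a mean of at least 5. Alternatives were added constants of 0.5 and 4, other filters and scalings, a replicate block, months averaged, single libraries left out and, added after the values were seen, both May libraries left out. The comparison of the sexes' changes was also added then. Sequences and coordinates are not used here.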

Additional observations from a re-analysis of the deposited data

Results flagged for a closer look

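Within each stage, every named gene and several library measures were searched for a single library far from the other 3, over 165 sets of 4 libraries, of which 11 held one. Chance alone gives about 5% of such sets. In anagen the September male had FST at 12.42 (the others 24.54 to 26.85). In catagen the December male had TGFB3 at 4.6 (the others 2.97 to 3.22). The November female had ID1 at 196.3 (126.69 to 134.56) and STUB1 at 110.24 (75.2 to 76.84). The November male had TWSG1 at 35.3 (43.06 to 44.12). In telogen the February male had TGFB2 at 33.36 (24.73 to 26.15). The March male had BMPR2 at 63.09 (88.76 to 93.98).

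Another 4 measures stood out in the same way. The May male had the highest summed epidermis markers of anagen at 7013.21, and the September male the highest summed myeloid markers of anagen at 64.13. The December female had the lowest ribosomal protein share of catagen at 20.6%, and the March female the lowest summed skeletal muscle markers of telogen at 4.9.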

How the results depend on the processing

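With 4 libraries a stage, 2 a month and unknown depth, small differences could not be resolved, and values near 1 are the least certain. Of the values of single genes under the alternatives, 2001 of 2217 kept their direction and their side of the threshold, 203 lost the call, 12 gained it and 1 reversed; the 20 differences smaller than their own standard error were not followed. The reversed value was ID3 between catagen and anagen, at -0.11 without both May libraries (adjusted p = 0.991). An added constant of 4 shrank low genes: against catagen BMP8A was then -0.49, TGFB3 0.25 and CHRD -0.39. The count of members that passed ran from 15 to 23 against catagen and from 17 to 27 against anagen.

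Among all genes, the count between catagen and anagen was 4 with only those stages fitted and 4 without both May libraries, and that between September and May was 9 among genes with a mean of at least 5. The genes with a sex difference in the change from catagen to telogen, 3 at first, numbered 1 and 6 with constants of 0.5 and 4, 0 at a mean of at least 5, and 5 and 6 under the same-sum scalings with and without mitochondrial and ribosomal protein transcripts. Leaving out 1 library at a time gave 0 to 8 for that count, 3 to 13 for all genes between catagen and anagen, 2344 to 7221 over the months, 8 to 33 between September and May, 19 to 4468 between February and December and 225 to 5977 between May and March. The members' counts ranged from 4 to 19 over the months, 0 to 15 between February and December and 0 to 19 between May and March.

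The replicate number is the sex of the library. Over 15 pairs of months, the male minus female differences of the genes tested had correlations from -0.255 to 0.442 (median 0.114, 9 of 15 over 0.1). Because the number is also the sex, these values cannot show whether same-numbered libraries share an animal. With the replicate number as a block, 22 members passed against catagen, 24 against anagen, 14 over the months, 15 between May and March and 1 in place of 3 between February and December, where ID1 (adjusted p = 0.0506) and ID3 (adjusted p = 0.0582) lost the call.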

Other observations

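Other pathway genes, picked after their values were seen, also moved in telogen. SOSTDC1, which encodes the BMP and Wnt antagonist ectodin, measured 46.7, 48.7, 47.2 and 31.4 in anagen, 39.0, 33.9, 49.4 and 47.4 in catagen and 61.4, 59.4, 60.5 and 74.8 in telogen. Its telogen libraries lay above all others, with log2 differences of 0.59 ± 0.15 (adjusted p = 0.00877) against catagen and 0.56 ± 0.15 (adjusted p = 0.00852) against anagen. KLF10, an early TGF-beta response gene, measured 15.9, 17.6, 15.9 and 17.7 in anagen, 13.7, 17.1, 18.5 and 16.7 in catagen and 34.7, 28.5, 38.2 and 20.2 in telogen. Telogen was again highest, with the March male nearest the other stages, and the log2 difference was 0.81 ± 0.16 (adjusted p = 0.00226) against catagen and 0.78 ± 0.16 (adjusted p = 0.00169) against anagen.

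GATA3, a transcription factor of the inner root sheath, measured 53.7, 51.7, 44.9 and 43.5 in anagen, 48.8, 51.5, 64.1 and 51.2 in catagen and 90.4, 74.6, 83.2 and 69.9 in telogen. All telogen libraries were above the rest, with log2 differences of 0.55 ± 0.11 (adjusted p = 0.00274) and 0.70 ± 0.11 (adjusted p = 0.00046) in the same order. LTBP3, a latent TGF-beta binding protein like LTBP1, went the other way, at 31.9, 24.1, 28.0 and 24.4 in anagen, 32.2, 22.4, 23.4 and 22.3 in catagen and 14.8, 14.9, 14.6 and 20.6 in telogen. Every telogen library was below every other library, with log2 differences of -0.60 ± 0.15 (adjusted p = 0.00621) and -0.71 ± 0.15 (adjusted p = 0.00152). These 4 genes passed both comparisons under every alternative tried.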
